A study of Rattus norvegicus with 15 samples.

Results

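Receptors for noradrenaline, acetylcholine and adenosine were followed from rat cardiac stem cells to beating cells derived from them and to neonatal and adult heart muscle cells. The genes were chosen by symbol: Adrb1, Adra1a, Adra1b, Adra1d, Chrm2 and Adora1. Of these 6 receptors, 5 had a row under their symbol among the 26276 genes of the table, and Adra1b was not analysed here. All cells came from Wistar rats, and each of the 4 groups had 3 RNA-seq libraries. Undifferentiated cardiac stem cells (CSC) were 3 cultures of 1 clone, and induced cardiomyocytes (iCM) were beating colonies grown from such stem cells. Neonatal cardiomyocytes (nCM) were isolated fresh from hearts at postnatal day 1 to 2, and adult cardiomyocytes (aCM) from hearts at 12 weeks of age. The labels name no further treatment or allele in any group, and they do not say how many rats or colonies went into a library of iCM, nCM or aCM.

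All of these receptors span the membrane and act through heterotrimeric G proteins. The beta-1 adrenoceptor Adrb1 couples to Gs, which raises cyclic AMP through adenylyl cyclase and so speeds and strengthens the heartbeat. The alpha-1 adrenoceptors Adra1a and Adra1d couple to Gq, phospholipase C and protein kinase C. The muscarinic M2 receptor Chrm2 and the adenosine A1 receptor Adora1 couple to Gi and Go, which lower cyclic AMP and open inwardly rectifying potassium channels, and both slow the heart.

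Promoter sequence was available for 4 of the 5 receptors from RefSeq (GRCr8), and it is shown because each of these genes differed in level between groups. Each sequence below is the 250 bases before the annotated start, read 5′ to 3′ on the gene's own strand, and capitals mark motif matches.

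Adrb1 (GRCr8, chr1:265776853-265777102, plus strand): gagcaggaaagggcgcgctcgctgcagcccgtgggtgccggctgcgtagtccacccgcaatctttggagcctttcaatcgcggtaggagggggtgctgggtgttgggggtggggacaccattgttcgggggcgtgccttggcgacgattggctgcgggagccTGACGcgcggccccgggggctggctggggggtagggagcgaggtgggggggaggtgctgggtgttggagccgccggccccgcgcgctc
Adra1d (GRCr8, chr3:139262332-139262581, minus strand): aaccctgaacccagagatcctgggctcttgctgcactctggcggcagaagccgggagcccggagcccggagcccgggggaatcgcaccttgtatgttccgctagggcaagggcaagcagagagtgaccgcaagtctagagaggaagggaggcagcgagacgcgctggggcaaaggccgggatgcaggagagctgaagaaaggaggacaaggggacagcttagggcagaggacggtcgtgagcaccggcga
Chrm2 (GRCr8, chr4:65982200-65982449, plus strand): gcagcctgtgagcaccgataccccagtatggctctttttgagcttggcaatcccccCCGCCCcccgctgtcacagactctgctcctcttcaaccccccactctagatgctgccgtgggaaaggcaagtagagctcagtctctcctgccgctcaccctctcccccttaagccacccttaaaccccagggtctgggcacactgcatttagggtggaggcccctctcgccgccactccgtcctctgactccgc
Adora1 (GRCr8, chr13:48246832-48247081, minus strand): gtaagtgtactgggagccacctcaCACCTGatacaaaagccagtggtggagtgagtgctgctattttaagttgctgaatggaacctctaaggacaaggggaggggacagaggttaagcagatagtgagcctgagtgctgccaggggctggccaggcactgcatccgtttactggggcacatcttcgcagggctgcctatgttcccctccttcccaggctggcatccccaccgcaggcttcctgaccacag

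The letters searched, on both strands, were the E-box CANNTG, the GC box GGGCGG, the cyclic AMP response element core TGACG, the nuclear receptor element core AGGTCA, the M-CAT element CATTCC and the TATA box TATAAA. Only the E-box equals its own reverse complement, and none of the matches overlapped. The Adrb1 window held TGACG at 88 to 84 bases before the start, a string present in 18.2% of all 33469 windows of this length. The Chrm2 window held the GC box as CCGCCC at 194 to 189 bases (30.5% of windows), and the Adora1 window held the E-box CACCTG at 226 to 221 bases (65.5% of windows). The Adra1d window held none of the 6 motifs, and AGGTCA (14.1% of windows), CATTCC (12.1%) and TATAAA (12.9%) were in none of the 4 windows. No motif was shared by any pair of these receptors. GC content was 72.0% for Adrb1, 64.0% for Adra1d, 62.0% for Chrm2 and 56.8% for Adora1, against a median of 51.2% over all windows.

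Libraries of CSC, iCM and nCM held 35.4 M to 48.5 M counts each, and those of aCM 20.7 M to 26.0 M. Levels are given as CPM, the counts divided by the TMM-scaled library size and expressed on a common scale, and 3 counts correspond to 0.0583 to 0.166 CPM depending on the library, a floor that covers counting error only. Cardiomyocyte markers (7 of 8 listed genes had a row) summed to 6.19 to 46.6 CPM in CSC and 3746 to 4309 in iCM, against 1324 to 2555 in nCM and 84270 to 111800 in aCM. Fibroblast markers (6 of 6) summed to 2983 to 3792 CPM in CSC, 16410 to 18660 in iCM, 16580 to 20600 in nCM and 2410 to 4742 in aCM. Erythroid markers (4 of 5) summed to 22.3 to 162 CPM in CSC, 16370 to 19570 in iCM, 23370 to 35340 in nCM and 24.2 to 91.7 in aCM. No marker with a row in these 3 lists was at 0 in all libraries of a group. Transcripts of other cell types were thus abundant in the iCM and nCM libraries, and in bulk RNA fewer cells of a type and less RNA per cell cannot be told apart. CSC replicate 1 had the highest cardiomyocyte marker sum of the 3 CSC libraries. iCM replicates 2 and 3 were the most alike pair within any group, with a median chi-square per gene of 1.72, so the iCM results are also given below with iCM replicate 1 alone.

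Adrb1 was the one receptor of the 5 that was higher in CSC, which are cultures of 1 clone, than in iCM or nCM. Its level in the 3 libraries was 2.97, 3.88 and 3.58 CPM in CSC, 2.25, 1.46 and 1.94 CPM in iCM, 1.07, 1.48 and 1.75 CPM in nCM, and 15.2, 10.5 and 9.17 CPM in aCM. Every CSC library was above every iCM and nCM library, every aCM library was above all others, and iCM and nCM overlapped. Adrb1 was lower in iCM than in CSC by a log2 fold change of -0.89 ± 0.25 (SE; edgeR's quasi-likelihood test, Benjamini-Hochberg adjusted p = 0.00653) and lower in nCM than in CSC (-1.28 ± 0.26, edgeR adjusted p = 0.000512). In aCM it was 3.33-fold higher than in CSC (log2 1.74 ± 0.25, edgeR adjusted p = 2.1e-05) and 8.1-fold higher than in nCM (log2 3.02 ± 0.26, edgeR adjusted p = 3.5e-07). iCM and nCM were not separated by the test (0.39 ± 0.26, 95% interval -0.16 to 0.95, edgeR adjusted p = 0.26). The order of mean levels was thus aCM, CSC, iCM and nCM, of which the last pair did not differ beyond their spread. With iCM replicate 1 alone the difference from CSC did not pass (-0.63, edgeR adjusted p = 0.177), with the spread of that lone library taken to be like that of the rest.

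Adra1a, the alpha-1A adrenoceptor, was close to the counting floor in CSC, which are cultures of 1 clone, and had its highest level in adult cells. It measured 0.264, 0.192 and 0.0889 CPM in CSC, which is 11, 9 and 3 counts. It measured 1.28, 1.34 and 0.816 CPM in iCM, 1.39, 1.3 and 1.21 CPM in nCM, and 96.3, 72.9 and 56.0 CPM in aCM. The lowest aCM library was far above the highest library of any other group, and iCM and nCM overlapped. Adra1a was 57.6-fold higher in aCM than in nCM (log2 5.85 ± 0.26, edgeR adjusted p = 9e-10) and 65.4-fold higher than in iCM (log2 of iCM against aCM -6.03 ± 0.26, edgeR adjusted p = 1.4e-09). It was also above CSC in iCM (2.59 ± 0.35, edgeR adjusted p = 2.3e-05), in nCM (2.77 ± 0.35, edgeR adjusted p = 9.6e-06) and in aCM (8.62 ± 0.32, edgeR adjusted p = 3.9e-11). Against CSC replicate 3 alone, the library with 3 counts, these 3 log2 values were 3.63, 3.8 and 9.64. Between iCM and nCM the log2 difference was -0.18 ± 0.26 (95% interval -0.74 to 0.38, edgeR adjusted p = 0.624), and its sign turned to 0.01 without iCM replicate 3.

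Adra1d, the alpha-1D adrenoceptor, showed the same order of groups at other values. It measured 0.216, 0.192 and 0.148 CPM in CSC, 1.17, 0.893 and 0.918 CPM in iCM, 0.728, 1.19 and 1.87 CPM in nCM, and 23.8, 21.2 and 18.8 CPM in aCM. CSC was below and aCM above all other libraries, and the nCM libraries spanned the whole iCM range. The log2 fold change of aCM over nCM was 4.07 ± 0.28 (edgeR adjusted p = 4.1e-08), and that of iCM against aCM was -4.42 ± 0.29 (edgeR adjusted p = 3e-08). Against CSC it was 2.38 ± 0.36 in iCM, 2.73 ± 0.36 in nCM and 6.80 ± 0.35 in aCM, and all 3 passed (edgeR adjusted p at most 5.8e-05). Between iCM and nCM it was -0.34 ± 0.28 (95% interval -0.95 to 0.27, edgeR adjusted p = 0.379), and 0.07 without nCM replicate 3. For Adra1a and Adra1d alike, the mean order was aCM, nCM, iCM and CSC, with nCM and iCM not separated beyond their spread.

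**Figure D1:**
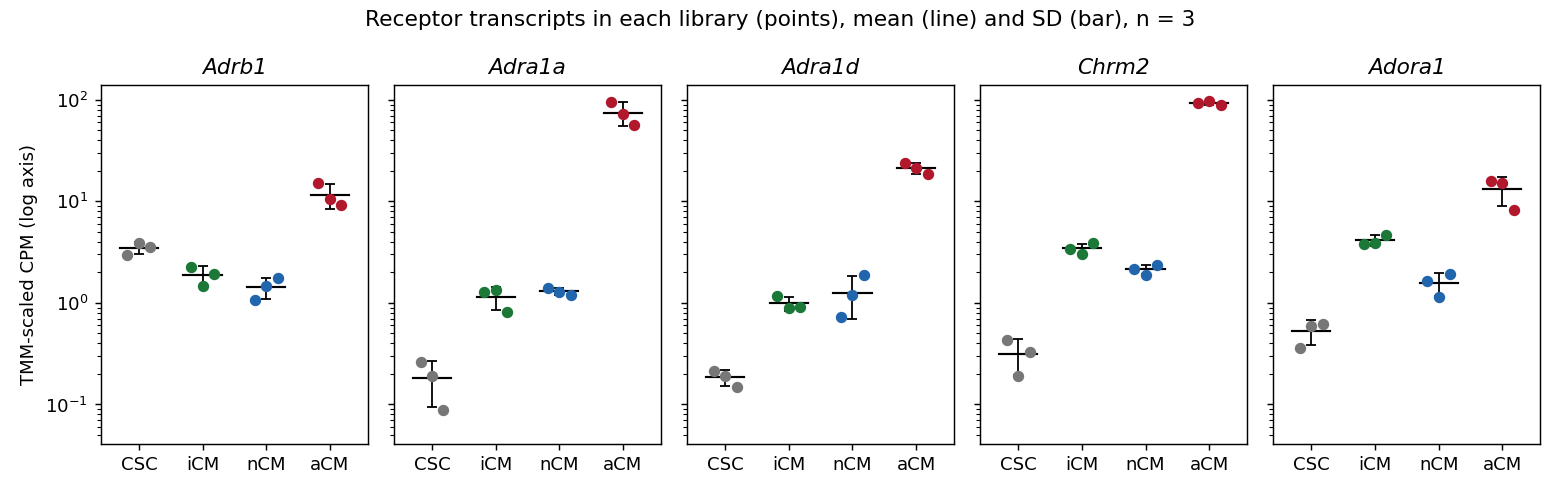
Level of each receptor gene in every library, as TMM-scaled CPM on a log axis, with points for single libraries, horizontal lines for the group mean and vertical bars for the SD (n = 3). The aCM libraries lie above all others for each of the 5 genes. Of all genes tested, 30.8% were called higher in aCM than in nCM and 43.3% higher than in CSC. The share of all genes separated in this way was not counted. Adrb1 has its lowest levels in iCM and nCM, not in CSC.

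Chrm2, the muscarinic M2 receptor through which the vagus nerve slows the heart, had its highest level in adult cells. It measured 0.432, 0.192 and 0.326 CPM in CSC, 3.42, 3.07 and 3.85 CPM in iCM, 2.18, 1.91 and 2.34 CPM in nCM, and 93.0, 96.8 and 88.2 CPM in aCM. The 4 groups did not overlap, in the order aCM, iCM, nCM and CSC. Chrm2 was 43.1-fold higher in aCM than in nCM (log2 5.43 ± 0.17, edgeR adjusted p = 9.9e-11) and 26.9-fold higher than in iCM (log2 of iCM against aCM -4.75 ± 0.17, edgeR adjusted p = 3.2e-10). iCM stood 1.61-fold above nCM (log2 0.68 ± 0.16, edgeR adjusted p = 0.00662). Against CSC the log2 fold change was 3.45 ± 0.21 in iCM, 2.77 ± 0.22 in nCM and 8.20 ± 0.21 in aCM, all past the threshold (edgeR adjusted p at most 9.1e-08).

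A second Ensembl identifier carries the same symbol in capitals, CHRM2, and reads of 1 receptor may be split between these rows. CHRM2 measured 0.12, 0.0854 and 0.0296 CPM in CSC, 2.64, 2.15 and 2.00 CPM in iCM, 1.71, 1.27 and 1.56 CPM in nCM, and 80.0, 67.5 and 60.3 CPM in aCM. It passed in the same direction in iCM against nCM (0.57 ± 0.19, edgeR adjusted p = 0.0337) and in aCM against nCM (5.51 ± 0.20). With the counts of both rows added together, a step chosen after seeing the data, the log2 value was 0.64 in iCM against nCM (edgeR adjusted p = 0.00612) and 5.46 in aCM against nCM, and no call changed.

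Adora1, the adenosine A1 receptor, had the largest difference between iCM and nCM among the receptors. It measured 0.36, 0.598 and 0.622 CPM in CSC, 3.79, 3.90 and 4.69 CPM in iCM, 1.65, 1.14 and 1.92 CPM in nCM, and 16.0, 15.2 and 8.29 CPM in aCM. The groups did not overlap, again in the order aCM, iCM, nCM and CSC. iCM stood 2.62-fold above nCM (log2 1.39 ± 0.28, edgeR adjusted p = 0.00251) and 3.19-fold below aCM (log2 -1.67 ± 0.27, edgeR adjusted p = 0.00011). aCM stood 8.37-fold above nCM (log2 3.07 ± 0.29, edgeR adjusted p = 7.3e-07). Against CSC the log2 fold change was 2.97 ± 0.31 in iCM, 1.58 ± 0.32 in nCM and 4.64 ± 0.32 in aCM, and the largest adjusted p of these was 0.000574 (edgeR).

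Read against the whole table, the counts of receptors called were as follows, with 17252 genes tested and an adjusted p of 0.05 as the threshold. In iCM against CSC, 4 receptors were higher and 1 was lower of 5, where 65.9% of all genes tested passed (34.7% higher and 31.2% lower). In nCM against CSC, 4 were higher and 1 was lower, with 72.2% of all genes passing (36.7% and 35.5%), and in aCM against CSC all 5 were higher, with 78.1% passing (43.3% and 34.9%). In iCM against nCM, 2 of 5 were higher and none lower, where 31.5% of all genes passed (18.3% higher and 13.2% lower). In iCM against aCM all 5 were lower, with 63.2% of genes passing (33.0% higher and 30.1% lower), and in aCM against nCM all 5 were higher, with 62.8% passing (30.8% and 31.9%). With so many genes passing, a count of 5 says little about these receptors, and the size of the change is the better description. The median log2 fold change of the 5 receptors was 4.07 in aCM against nCM, beside -0.01 over all genes tested, and -4.42 in iCM against aCM, beside 0.00. The corresponding values for iCM against nCM were 0.39 and -0.02.

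The comparisons share groups, so their values stand side by side and are not independent. Of all genes in aCM against nCM, 5318 were higher and 5509 lower, and scaling by library total alone gave 3790 and 7483. In iCM against aCM the split was 5699 higher and 5201 lower, and 7332 and 3749 by library total. Every receptor kept its call and direction under that scaling.

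With iCM replicate 1 alone, none of the 5 receptors passed in iCM against nCM. The Chrm2 value was then 0.69 (edgeR adjusted p = 0.12) and the Adora1 value 1.28 (edgeR adjusted p = 0.084), both close to the values with 3 iCM libraries. The number of all genes called in that comparison was 1065 in place of 5437. Leaving out iCM replicate 2 gave 3505 genes, and leaving out iCM replicate 3 gave 3594.

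**Figure D2:**
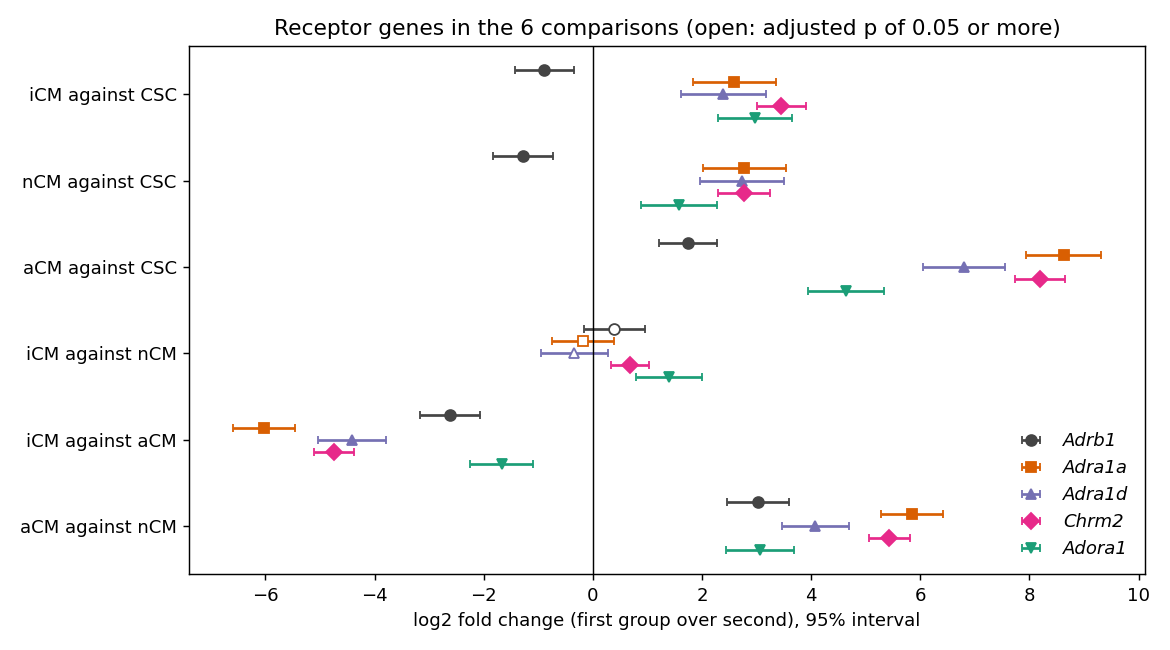
Log2 fold change of each receptor gene in the 6 comparisons with its 95% interval, from edgeR, with filled symbols where the adjusted p was under 0.05. In iCM against nCM the intervals of Adrb1, Adra1a and Adra1d cross 0, and those of Chrm2 and Adora1 lie above it.

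The cardiomyocyte marker sum was 1324 to 2555 CPM in nCM, 3746 to 4309 in iCM and 84270 to 111800 in aCM. Chrm2 and Adora1 had this same order across nCM, iCM and aCM without overlap, and Adrb1 had it in its means only. Adra1a and Adra1d shared the high level in aCM but were not higher in iCM than in nCM on average. Smooth muscle and pericyte markers also summed highest in aCM, with 870 to 991 CPM in nCM, 1007 to 1271 in iCM and 1497 to 2034 in aCM. Neural and glial markers summed to 14.4 to 18.3 CPM in nCM, 70.9 to 99.85 in iCM and 52.6 to 63.8 in aCM. Fibroblast and erythroid sums, given above, were lower in aCM than in nCM. The part of these lists in the results was not tested. As a description, each receptor was divided by the geometric mean level of the cardiomyocyte markers in its own library and is given per 1000 CPM of that mean. Chrm2 was then at 7.59 to 9.29 in iCM, 8.03 to 15.1 in nCM and 16.9 to 18.4 in aCM. Adra1a was at 1.97 to 3.37 in iCM, 5.12 to 7.78 in nCM and 11.7 to 18.6 in aCM. On this scale too, both had their highest values in aCM, and Adra1a was lower in every iCM library than in every nCM library.

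The other receptors did not follow that order. Adora1 per 1000 CPM of marker was at 8.39 to 11.3 in iCM, 5.35 to 12.4 in nCM and 1.73 to 3.1 in aCM, so aCM was the lowest group and iCM lay within the nCM range. Adrb1 was at 3.67 to 4.996 in iCM, 3.94 to 11.3 in nCM and 1.83 to 2.93 in aCM, also lowest in aCM. Adra1d was at 2.21 to 2.59 in iCM, 2.68 to 12 in nCM and 3.69 to 4.59 in aCM, with aCM inside the nCM range. Within nCM, replicate 3 had the lowest marker level and the highest ratio for all 5 receptors. The markers themselves rose by unlike amounts. Tnnc1 averaged 307.3 CPM in nCM and 1728 in aCM, and Ryr2 84.79 and 12150. The order of groups on this scale, for each of the 5 receptors, may thus depend on the markers chosen.

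Ratios of 2 receptor genes within a library do not depend on library scaling, and the 3 given here were compared between groups by exact permutation, with p adjusted over the 4 ratios tested. They are ratios of counts that are not corrected for gene length, so only their change between groups can be read. The log2 ratio of Chrm2 to Adrb1 averaged -3.47 ± 0.76 (SD, n = 3) in CSC and 0.89 ± 0.25 in iCM, against 0.60 ± 0.37 in nCM and 3.03 ± 0.36 in aCM (exact permutation adjusted p = 0.00039). iCM and nCM overlapped in this ratio, and CSC and aCM lay apart on either side.

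The log2 ratio of Adora1 to Chrm2 was lowest in aCM. It was -0.26, 1.58 and 0.90 in CSC, 0.14, 0.35 and 0.28 in iCM, -0.40, -0.74 and -0.29 in nCM, and -2.53, -2.67 and -3.41 in aCM (exact permutation adjusted p = 0.00234, n = 12 libraries). Every aCM library was below all others, every iCM library was above every nCM library, and the CSC libraries spanned the iCM range. The log2 ratio of Adra1a to Adra1d was 1.79 ± 0.22 (SD, n = 3) in aCM against 0.18 ± 0.38 in iCM and 0.14 ± 0.78 in nCM, with CSC left out because a library had fewer than 10 counts for the pair together (exact permutation adjusted p = 0.0321). This last result did not pass without nCM replicate 2 (exact permutation adjusted p = 0.05) or without any 1 of the aCM replicates (exact permutation adjusted p = 0.0679 to 0.0786).

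**Figure D3:**
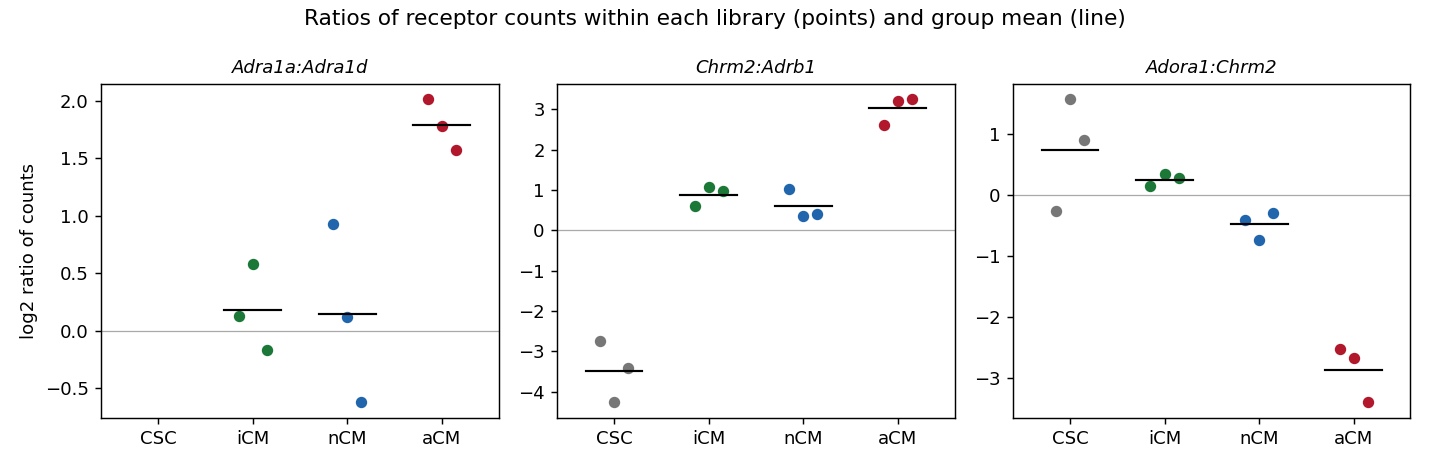
Log2 ratio of counts of 2 receptor genes within each library, by group, with points for libraries and lines for the mean of 3, each panel on its own axis. The Chrm2 to Adrb1 ratio is lowest in CSC and highest in aCM, and the Adora1 to Chrm2 ratio is lowest in aCM.

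The remaining receptors of the 3 families were counted in the same comparisons. Of 11 tested identifiers in aCM against nCM, 1 was higher, 4 were lower and 6 did not pass, with a median log2 change of -0.36. Of all genes tested there, 30.8% were higher and 31.9% lower. The alpha-2A adrenoceptor Adra2a, an inhibitory receptor of sympathetic nerve endings, averaged 4.14 ± 0.732 CPM (SD, n = 3) in nCM and 1.04 ± 0.525 in aCM (log2 -1.97 ± 0.31, edgeR adjusted p = 0.000102). The adenosine receptor Adora2a, which widens coronary vessels, averaged 46.9 ± 3.09 CPM in nCM and 23.8 ± 3.46 in aCM (log2 -0.98 ± 0.27, edgeR adjusted p = 0.0062). The muscarinic receptors Chrm3 (log2 -0.84 ± 0.28) and Chrm5 (log2 -1.62 ± 0.29) were also lower, and Adra2c was higher (log2 1.44 ± 0.53, edgeR adjusted p = 0.0306) on 2 to 18 counts per aCM library.

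Between iCM and nCM, 1 of these 11 was higher, 3 were lower and 7 did not pass, where 18.3% of all genes were higher and 13.2% lower. Adora2b, the adenosine A2B receptor, was higher (log2 0.77 ± 0.27, edgeR adjusted p = 0.0447). Those lower included Adra2a (log2 -1.07 ± 0.28, edgeR adjusted p = 0.012) and Chrm3 (log2 -1.16 ± 0.27, edgeR adjusted p = 0.00553). In iCM against CSC, 7 of the 11 were higher and Adora2b alone was lower (log2 -1.24 ± 0.26), and in aCM against CSC the counts were also 7 and 1. Of all genes, 34.7% were higher and 31.2% lower in iCM against CSC, and 43.3% and 34.9% in aCM against CSC. Both identifiers of Adora3 were too low to test. Leukocyte markers (6 of 6 with a row) summed to 111 to 123 CPM in iCM, 244 to 368 in nCM and 89.2 to 134 in aCM, and endothelial markers (6 of 6) to 1493 to 1752, 2204 to 2706 and 998 to 1557 CPM in the same order. Both sums were thus highest in nCM, and so was the erythroid sum given above. Adora2a, Adra2a, Chrm3 and Chrm5 were also highest in nCM on average. The part of these cell types in the receptor differences was not tested.

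**Figure D4:**
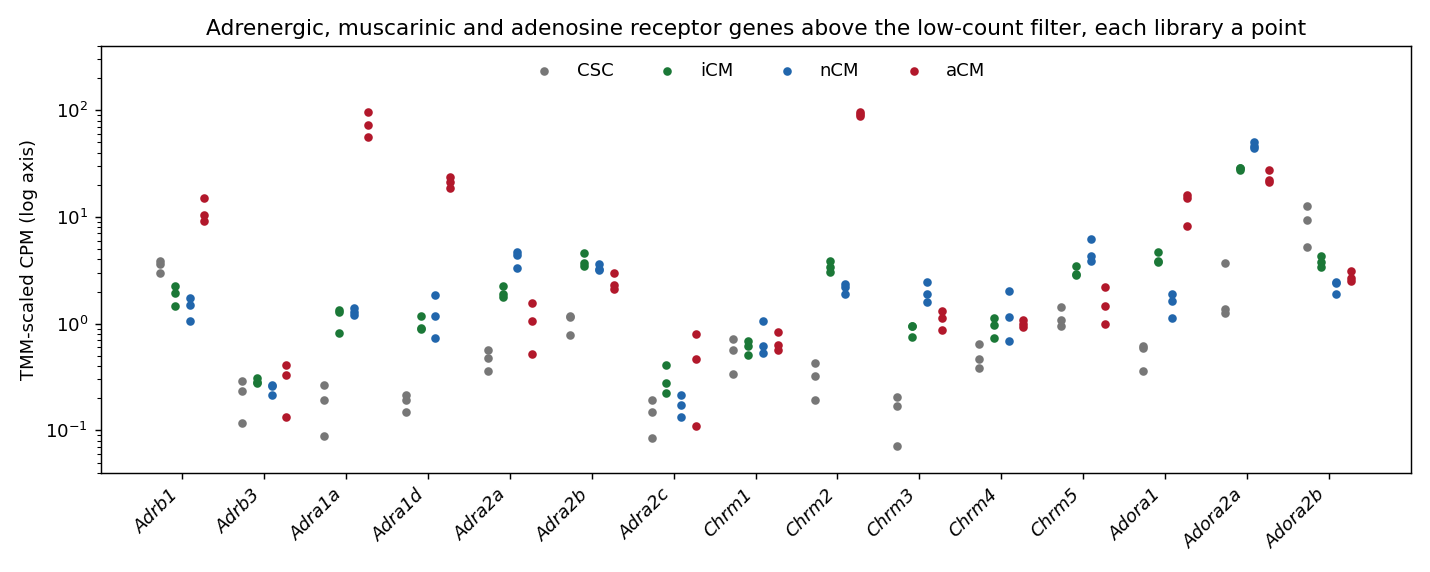
Level of the adrenergic, muscarinic and adenosine receptor genes described here that passed the low-count filter, as TMM-scaled CPM on a log axis, with 1 point per library and colours for the 4 groups. The aCM points of Chrm2, Adra1a and Adra1d lie far above those of the other groups, while Adora2a is highest in nCM.

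Signalling partners were taken from lists of genes downstream of these receptors. Every list count below stands beside the share of all genes tested. That share was 30.8% higher and 31.9% lower in aCM against nCM, and 18.3% higher and 13.2% lower in iCM against nCM. Of the effector channels and targets of protein kinase A, all 11 tested genes were higher in aCM than in nCM, with a median log2 change of 4.44 beside -0.01 over all genes. The cardiomyocyte markers were higher there too, 7 of 7 with a median of 4.44, and their part in this count was not tested. Kcnj3 and Kcnj5, which form the potassium channel opened by Chrm2 and Adora1, rose by 5.90 ± 0.24 and 5.04 ± 0.27 on the log2 scale. The pacemaker channel Hcn2 was higher by 5.65 ± 0.44 and the calcium release channel Ryr2 by 7.16 ± 0.66. Ryr2, Mybpc3 and Pln also stand in the cardiomyocyte marker list. Of the 11, 5 were higher in iCM than in nCM and none lower (median 0.63), among them Hcn2 (1.2 ± 0.4, edgeR adjusted p = 0.0373) and the sarcomere protein Mybpc3 (1.03 ± 0.23). Kcnj3 (0.36 ± 0.22, edgeR adjusted p = 0.227) and Kcnj5 (0.51 ± 0.26, edgeR adjusted p = 0.144) did not pass there.

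Of 17 tested identifiers of G protein subunits, 12 were lower and 3 higher in aCM than in nCM, with a median log2 change of -0.87, where 31.9% of all genes were lower and 30.8% higher. In the same comparison 5 of 6 fibroblast, 6 of 6 leukocyte, 5 of 6 endothelial and 4 of 4 erythroid markers were lower. Other lists went the other way. Of 6 smooth muscle and pericyte markers 4 were higher and 1 lower, of 6 neural and glial markers 4 and 0, and of 5 adipocyte markers 3 and 1. The part of these cell types in the count of subunits was not tested. Gnai2 (-0.90 ± 0.14), an alpha subunit of Gi, and Gnaq (-0.62 ± 0.13), the alpha subunit of Gq, were lower. Gnas, the alpha subunit of Gs, has 2 identifiers, which were lower by -0.71 ± 0.11 and -4.01 ± 0.45, and reads may be split between them. Gnao1, the alpha subunit of Go, was higher (1.51 ± 0.16). Of the subunits, 4 were higher and 1 lower in iCM than in nCM, with Gnao1 at 1.06 ± 0.16 and Gna13 at -0.66 ± 0.12. Mean Gnao1 was 24.1 CPM in CSC, 15.9 in iCM and 7.61 in nCM.

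Adenylyl cyclases, which make cyclic AMP, were higher in aCM than in nCM for 5 of 9 genes and lower for 2 (median 1.48). Adcy5, a main cardiac cyclase, was higher by a log2 value of 4.75 ± 0.15 in aCM and 0.64 ± 0.13 in iCM against nCM. Adcy6, the other main cardiac form, was higher by 1.74 ± 0.15 and 0.68 ± 0.14, and Adcy1 by 4.53 ± 0.24 and 1.06 ± 0.22. Adcy8 passed in iCM against nCM (1.19 ± 0.20), at means of 2.10 and 0.926 CPM, both far below the 74.0 CPM in CSC. In that comparison 4 cyclases were higher and 2 lower.

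Among 12 subunits and anchoring proteins of protein kinase A, 5 were higher and 3 lower in aCM than in nCM. The anchoring protein Akap6 was higher by 5.29 ± 0.27 and Akap1, which tethers the kinase to mitochondria, by 3.12 ± 0.11. iCM had 4 of them higher than nCM and none lower, with the catalytic subunit Prkaca at 0.69 ± 0.13 and Akap7 at 0.81 ± 0.16. Phosphodiesterases, which break down cyclic nucleotides, were split 3 higher and 3 lower of 11 identifiers in aCM against nCM, and 1 higher and 4 lower in iCM against nCM. Pde4a was higher in aCM (3.11 ± 0.23). One of 2 identifiers of Pde4d was higher in aCM (1.76 ± 0.33) and in iCM (0.92 ± 0.32), from a mean of only 0.73 CPM in nCM. The other, which held most Pde4d counts, averaged 55.45 CPM in nCM, 52.12 in iCM and 62.88 in aCM. Pde5a was lower in iCM (-0.64 ± 0.21).

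Of 10 tested regulators that switch receptor signalling off, 5 were lower, 2 were higher and 3 did not pass in aCM against nCM, where 31.9% of all genes were lower and 30.8% higher. The receptor kinase Grk5 was lower (-0.59 ± 0.14), while the kinase Adrbk1, also called Grk2, did not pass (0.09 ± 0.09, edgeR adjusted p = 0.445). Rgs6, which speeds the shut-off of Gi and Go signals at Chrm2, was higher (3.71 ± 0.21), and Rgs3 was lower (-1.51 ± 0.19). In iCM against nCM 3 were higher and 2 lower: Rgs2, a brake on Gq, stood at 2.30 ± 0.37, Grk5 at 0.72 ± 0.14 and Rgs5, which is also in the pericyte marker list, at -1.14 ± 0.23. Phospholipase C and protein kinase C genes were split 4 higher and 3 lower of 9 in aCM against nCM, with Prkce (1.63 ± 0.17) and Prkca (1.05 ± 0.13) higher. They were split 3 and 3 in iCM against nCM, with Prkcb (-1.0 ± 0.21) and Prkd1 (-0.97 ± 0.15) lower.

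Genes that handle the ligands were measured too. Of 6 adenosine genes 3 were higher and 2 lower in aCM than in nCM, and 2 were higher and 1 lower in iCM than in nCM. Nt5e, the enzyme that makes adenosine outside the cell, was higher in aCM (0.85 ± 0.26, edgeR adjusted p = 0.0122), and the upstream enzyme Entpd1 was lower (-1.56 ± 0.18). Adenosine kinase Adk, which removes adenosine, was higher in aCM (1.44 ± 0.17) and in iCM (1.21 ± 0.17) than in nCM. Its mean was 146.8 CPM in CSC, 83.99 in iCM and 36.34 in nCM, so iCM lay below CSC. The adenosine transporter Slc29a2 was higher in iCM than in nCM (1.73 ± 0.30), at means of 5.67 and 1.71 CPM. The more abundant transporter Slc29a1 averaged 60.1 CPM in iCM and 59.3 in nCM. Of 14 genes for catecholamines and acetylcholine, 9 were higher and 2 lower in aCM than in nCM, led by the catecholamine transporter Slc22a3 (4.73 ± 0.22) and the cholinesterase Bche (4.50 ± 0.13). In iCM against nCM 2 were higher and 3 lower, among them the choline transporter Slc5a7 (-1.16 ± 0.29).

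**Figure D5:**
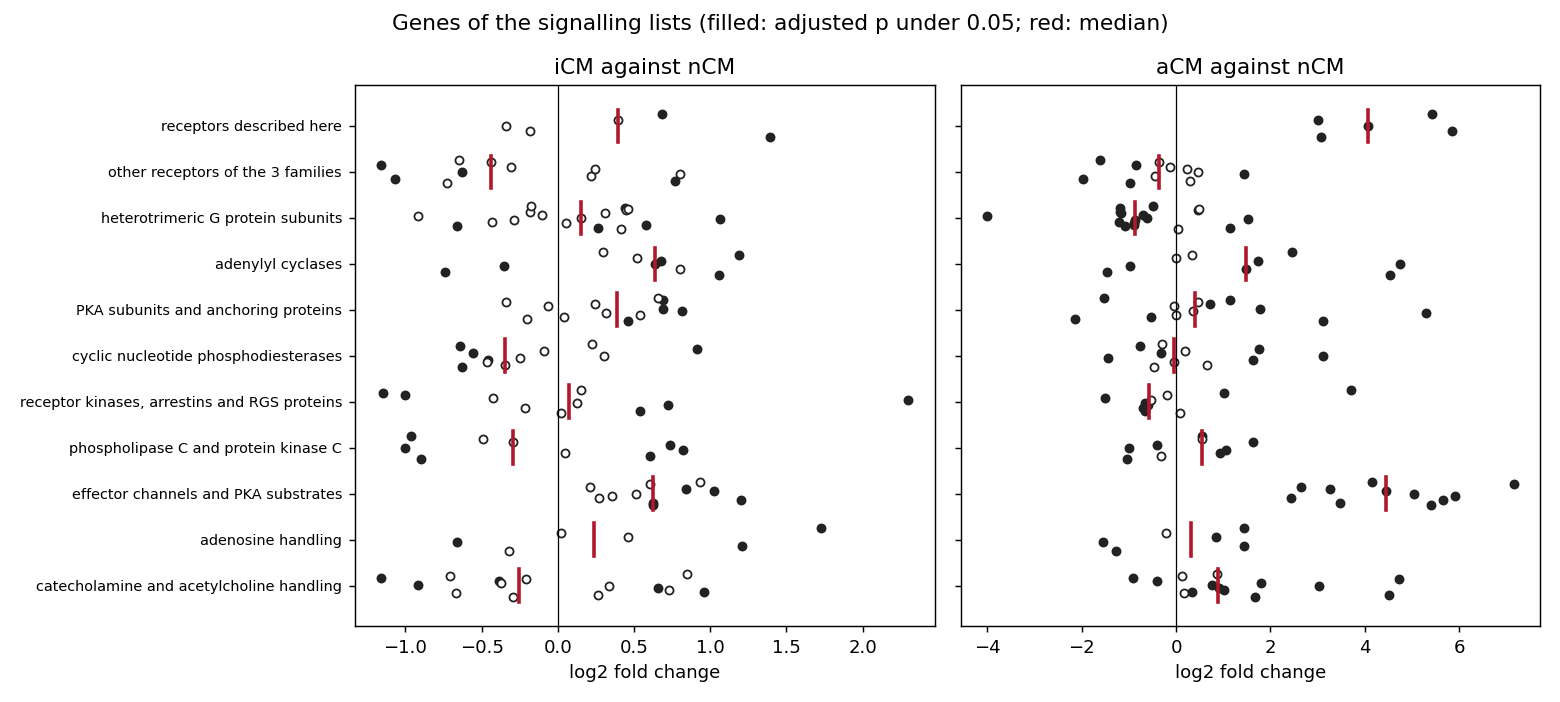
Log2 fold change of each tested gene in the signalling lists, in iCM against nCM and in aCM against nCM, with filled points where the adjusted p was under 0.05 and a red line at the list median, and the axes of the 2 panels differ. The effector channels and protein kinase A substrates all lie above 0 in aCM against nCM, and most G protein subunits lie below 0.

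Among themselves the receptors fell into a closer set and 2 looser genes. Across the 12 libraries, which share their group differences, the Pearson correlation of log2 CPM was 0.99 for Adra1a with Adra1d and 0.98 for Chrm2 with each of them. It was 0.942 for Chrm2 with Adora1 and 0.625 for Adrb1 with Adora1. The tested genes most like Chrm2 were the potassium channel Kcnk2 (r = 0.999), Adck3 (0.998) and the second row CHRM2 (0.998). Those most like Adra1a were the glutamine transporter Slc38a3, Ros1 and the fatty acid oxidation enzyme Acadl (all 0.997). For Adra1d they were Ptprh (0.995), Lpin1 (0.994) and Pm20d2 (0.994), for Adora1 Dok7 (0.989), Prune (0.985) and the filamin Flnc (0.985), and for Adrb1 Nrd1 (0.987), the sodium and proton exchanger Slc9a8 (0.985) and the triglyceride enzyme Dgat1 (0.984).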

How the data were processed

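Ribosome-depleted RNA from 12 libraries in 4 groups was measured. Expression was deposited by the authors as estimated counts, with fractional values, for Ensembl genes. Beside them stand log2 normalized values deposited by the authors, which were not used. The submitters' processing notes list DESeq. For clones cCSC1 and cCSC2 the authors deposited a signal on the scale of counts whose making is not given. Neither aligner nor counting program, strand setting or genome build is given in the sources used here, so overlapping genes and near-identical copies are uncertain. Per the labels' protocols, RNA had an integrity number of at least 8 and libraries used 1 µg of total RNA.

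Counts were rounded to whole numbers. One line without a gene name held a count of 0.0 and was left out, and 5794 identifiers have no symbol. Genes were kept with edgeR's filterByExpr (minimum count 10), leaving 17252 of 26276, and all 5 receptors with a row passed. One edgeR fit of 12 libraries with TMM scaling gave 6 contrasts by the quasi-likelihood test, with Benjamini-Hochberg adjustment over all genes at 0.05. Ratios used 0.5 added to each count and an exact permutation test whose statistic is the sum of squares between groups, two-sided in effect. The planned ratios with Adra1b could not be computed, and some other results are not reported here. Promoters are from RefSeq (GRCr8). The edgeR step was tested on simulated counts in which a small set of genes changed in iCM only, unlike these data. The ratio test was run on a made-up set of clearly separated values.

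The members and lists were chosen with earlier results of these data known. Named genes were all members, the other receptors of their families, up to 4 genes of each signalling list with the largest change that passed, a few partners with a direct role at the receptors, and the 3 genes most like each member. Apart from CSC, nothing says that libraries came from separate cultures or animals, so p-values measure a spread that may be technical. The spread of CSC is that of cultures of 1 clone and does not cover differences between stem cell clones. No pair of libraries agreed within sampling noise. Alternatives covered scaling, tool, filter, samples and a block. The software was edgeR 4.0.16, DESeq2 1.42.0 and limma 3.58.1 in R 4.3.3, with Python 3.11.15, pandas 2.3.3, numpy 2.4.6, scipy 1.17.1 and matplotlib 3.10.9.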

Additional observations from a re-analysis of the deposited data

Results flagged for a closer look

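The 3 libraries of further stem cell clones (cCSC1, cCSC2 and cCSC3) enter no comparison above, and 4 of the receptors were measurable in them above the level of 3 counts, which is 0.143, 0.12 and 0.0774 CPM when scaled by each column's total alone. Adrb1 stood at 3.18, 2.16 and 5.97 CPM in these clones, Adra1a at 0.7003, 0.7095 and 0.211, Chrm2 at 0.364, 0.306 and 0.181, and Adora1 at 0.486, 0.846 and 0.612. The Adrb1 value of cCSC2 was below that of iCM replicate 1 (2.25 CPM), though the scaling differs. With the same limit, Adra1a in cCSC1 and cCSC2 was above every CSC library (at most 0.264 CPM) and below every iCM library (at least 0.816 CPM). Each clone is 1 library, the cCSC1 and cCSC2 columns hold a signal that may not be counts, no test was made, and Adra1d was not analysed here in the clones.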

How the results depend on the processing

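Of 480 values of member log2 fold changes under the alternatives, 477 kept their direction where called and their side of the threshold and 3 did not pass. These 3 arose with iCM replicate 1 alone: Adrb1 in iCM against CSC (-0.63, edgeR adjusted p = 0.177), and Adora1 (1.28) and Chrm2 (0.69) in iCM against nCM. The number of receptors called in iCM against nCM was then 0, and that of all genes 1065. Leaving out 1 library gave 3505 to 5108 genes in that comparison. The adjusted p of the Adra1a to Adra1d ratio was 0.0143 to 0.0786 by exact permutation when 1 library was left out, and the ratios of Chrm2 to Adrb1 and of Adora1 to Chrm2 passed under all alternatives run. The labels do not say that replicate numbers pair the libraries. With each group's mean level of a gene taken out, same-numbered libraries of different groups correlated at -0.216 to 0.078. In 12 of 36 checks a library matched best with its own number. With 3 libraries to choose from in each check, random numbering would match as often. No sign of pairing was thus seen, but such a check cannot exclude it. With the replicate block, 11111, 12166, 13210, 4752, 10609 and 10476 genes were called in the order of comparisons iCM, nCM and aCM against CSC, iCM against nCM, iCM against aCM and aCM against nCM, and no receptor call changed. Scaling by library total moved the median of all genes in aCM against nCM from -0.01 to -0.35 and in iCM against aCM from 0.00 to 0.28. The settings with 1 library in a group assume that it varies like the other groups. Depth limits the CSC values of Adra1a, Adra1d and Chrm2, with 3 to 18 counts per library.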
